A study of Mus musculus with 5 samples.

Results

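The nuclear genes of respiratory complex I were compared between Ter119+ bone marrow cells of Polg mutant mice and of WT mice. Complex I members were taken as every gene whose mouse symbol begins with Nduf followed by a, b, c, s, v, ab or af and a number, measured on a probe set that carried that symbol alone, with the brightest probe set kept per gene. This gave 42 of the 22180 genes measured. They comprised 6 core subunits, 28 accessory subunits and 8 assembly factors, the last being the Ndufaf genes. Ndufs6, Ndufb1, Ndufb2 and Ndufb4 were not analysed here.

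Complex I, NADH:ubiquinone oxidoreductase, takes electrons from NADH, passes them along a flavin and a chain of iron-sulfur clusters to ubiquinone, and pumps protons across the inner mitochondrial membrane. It is L-shaped: a matrix arm carries the NADH dehydrogenase module at its tip and the quinone module at its base, and a membrane arm carries the proton pumps. The membrane pumps are encoded by mitochondrial DNA, the core subunits of the matrix arm and all accessory subunits by nuclear genes, so assembly needs both genomes. Erythroid precursors depend on mitochondria for heme and iron-sulfur cluster synthesis and remove them as reticulocytes mature.

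The 3 Polg mutant arrays came from mice homozygous for the Polgtm1Lrsn allele (mt/mt), and the 2 WT arrays from mice with the wt/wt genotype at that locus. Polg encodes the catalytic subunit of the mitochondrial DNA polymerase, and the mutant allele encodes an enzyme without proofreading. Both groups were on a C57BL/6 background and came from crosses of parents that were both Atg7 flox/flox and PolG wt/mt, with a mother that was Epo-cre wt/wt and a father that was Epo-cre ki/wt. All offspring of such parents carry floxed Atg7, and the labels do not say which of them inherited Cre. The mice had been phlebotomized, per the series' design text, while the label's treatment field read none; ages were not given. Cells bearing CD45 were depleted on a magnetic separator and Ter119+ cells were then selected. The question was which genes and pathways differ between the genotypes. The labels do not say that each array came from a separate mouse, so a p-value here reflects the spread among these 5 samples alone, and that spread may be technical.

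Some facts of the arrays bear on every result. WT replicate 1 stood apart in its sex-linked transcripts. Xist, the RNA that silences an X chromosome in female cells, read 11.89, 11.96 and 12.00 on the Polg mutant arrays and 12.14 on WT replicate 2, but 5.76 on WT replicate 1. The Y-linked gene Uty read 3.06 to 3.13 on the Polg mutant arrays and 3.10 on WT replicate 2, but 7.39 on WT replicate 1, and Kdm5d and Eif2s3y divided the arrays in the same way. The labels give no sex, and results are given below with and without WT replicate 1. None of the 13 measured genes of the erythroid marker list had a mean level below 5.33, the median level of all genes. The list averaged 11.93 to 12.00 on the Polg mutant arrays, against 12.35 and 12.16 on the WT arrays. For 11 of these 13 genes the 3 Polg mutant values were all under the lower WT value, against 9.73% of all genes. Among the 8340 genes with a log2 value over 6 on 2 or more arrays, 1697 were lower in this way. The list of 15 neutrophil genes averaged 8.61, 9.02 and 7.40 on the Polg mutant arrays, against 8.26 and 7.22 on the WT arrays. The part of either list in the differences of complex I genes was not tested. In such bulk samples, fewer cells of a type and less RNA per cell cannot be told apart. The Polg probe set read 6.97 on all 5 arrays, which does not check the labels, since the mutant allele is still transcribed.

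Taken as a group, complex I genes leaned higher in Polg mutant cells, by small amounts and unevenly. Of the 42, 29 had a mean above that of WT and 12 below, with a median log2 difference (Polg mutant minus WT) of 0.12, against 0 over all genes. With limma, no member passed an adjusted p under 0.05, as none of the 22180 genes did (0%). At an unadjusted p under 0.05, 10 members were higher (23.8%), against 4.18% of all genes, and 0 were lower, against 5.33% of all genes. Members were brighter than most genes, and among the 8340 genes with a log2 value over 6 on 2 or more arrays 9.47% were higher and 12.5% lower at that p. In 14 members (33.3%) the 3 Polg mutant values were all above the higher WT value, against 8.36% of all genes and 16.7% of those 8340. In 1 member, Ndufaf3, they were all under the lower WT value, against 9.73% of all genes. Because 5 arrays allow 10 splits, an exact permutation test of a single gene could not go below p = 0.1.

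The count depended on WT replicate 1. Without WT replicate 1, 5 members were higher at an unadjusted p under 0.05 (11.9%), against 8.56% of all genes, and 4 of these were among the 10, the fifth being Ndufb9 at 0.03. All 10 still had a positive difference. The 8.56% is not matched for level, and members were brighter than most genes, so no excess of members is read from this count. At the same p 2 members were lower, against 11.6% of all genes. They were Ndufb3 and Ndufv3, at -0.22 and -0.16, and both passed a limma adjusted p under 0.05, as 4.82% of all genes did as lower and 3.21% as higher; no member passed as higher. Their Polg mutant values were nearly identical, and this fit assumes that the lone WT array varies like the Polg mutant arrays. The median difference of the 42 members was then 0.05. Without WT replicate 2, 0 members passed an adjusted p, against 2.3% of all genes as higher and 1.86% as lower. Of the 10, 6, 6 and 5 kept an unadjusted limma p under 0.05 without Polg mutant replicate 1, 2 and 3. In those fits 3.23%, 3.37% and 3.74% of all genes were higher at that p. Across the fits that each left out 1 of the 5 arrays, Ndufa7 differed by 0.52 to 0.63, Ndufs8 by 0.55 to 0.67 and Ndufs3 by 0.35 to 0.44. These were the members of smallest p on the same arrays, so the ranges are not an independent check.

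**Figure D1:**
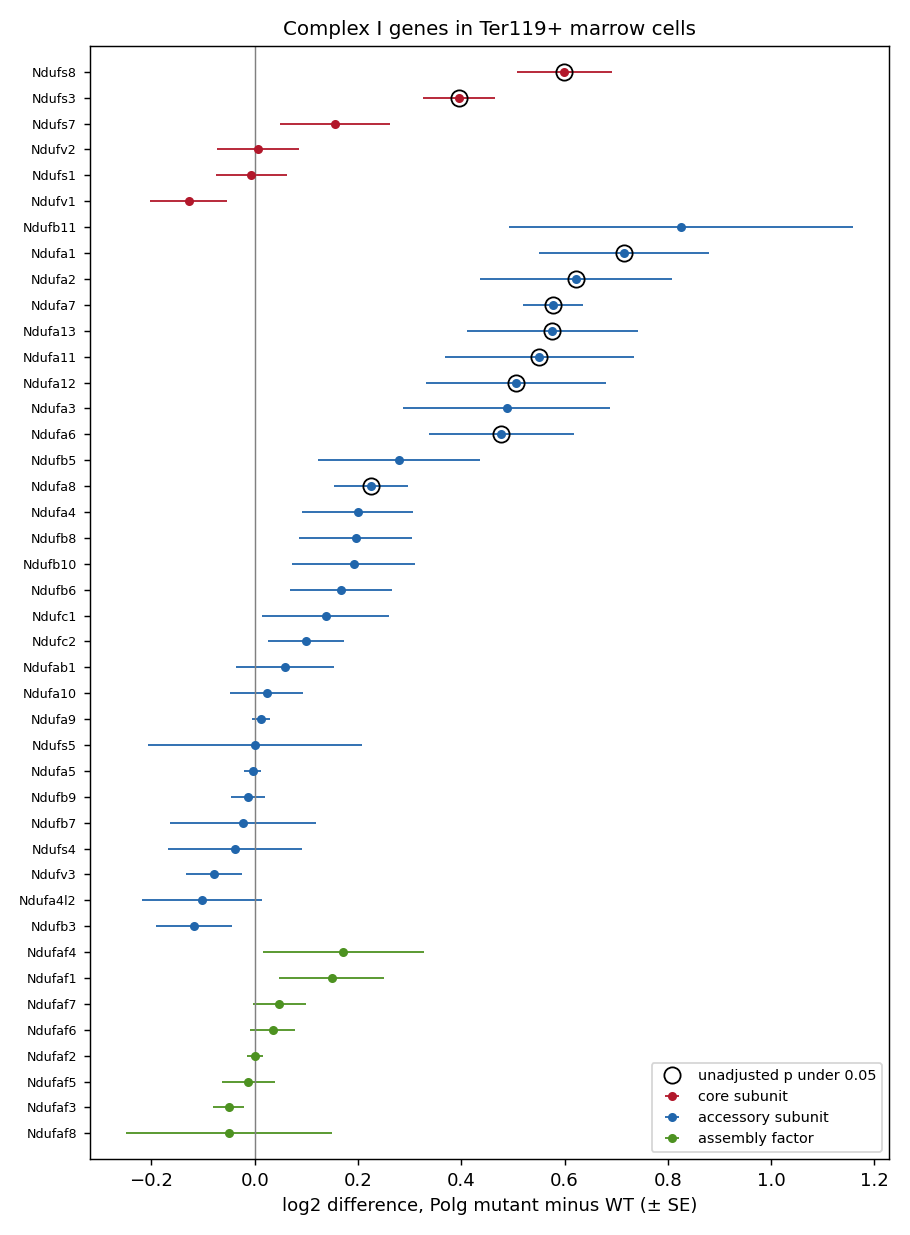
Log2 difference (Polg mutant minus WT, horizontal axis) of each of the 42 complex I genes, with bars for the SE of limma's fit, grouped from top to bottom as core subunits, accessory subunits and assembly factors. Open circles mark the 10 genes with an unadjusted p under 0.05, which are core or accessory subunits and lie right of 0.

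The core subunits carry the redox chemistry and are conserved from bacteria. Their differences divided by module. The quinone module holds the last iron-sulfur clusters and the ubiquinone site. Ndufs8, a core subunit of this module that binds a pair of iron-sulfur clusters, read 9.88, 9.64 and 9.83 on the Polg mutant arrays, against 9.14 and 9.23 on the WT arrays. The groups did not overlap, and the mean was 9.78 ± 0.13 in Polg mutant (SD, n = 3) and 9.19 ± 0.07 in WT (SD, n = 2). The difference was 0.60 ± 0.09 (SE), or 1.51-fold, with a limma adjusted p of 0.238. Without WT replicate 1 it was 0.55.

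Ndufs3, which helps to build the base of the matrix arm, read 6.65, 6.46 and 6.56 on the Polg mutant arrays, against 6.21 and 6.12 on the WT arrays. Again no array of one group reached the other, and the difference was 0.40 ± 0.07 (SE; limma adjusted p = 0.265), or 0.44 without WT replicate 1. Ndufs7, which carries the cluster nearest to ubiquinone, read 10.99, 10.99 and 11.18 on the Polg mutant arrays, against 10.78 and 11.01 on the WT arrays. These values overlapped, and the difference of 0.16 ± 0.11 (SE) was 0.04 without WT replicate 1.

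The NADH dehydrogenase module holds the flavin site and the first clusters, and its core genes showed no such shift. Ndufv1, which binds NADH and flavin, read 9.24, 9.32 and 9.42 on the Polg mutant arrays, against 9.39 and 9.52 on the WT arrays. Polg mutant replicate 3 lay between the WT values, and the difference was -0.13 ± 0.07 (SE; limma adjusted p = 0.638). Ndufv2, an iron-sulfur subunit beside it, differed by 0.01 ± 0.08 (SE). Ndufs1, the largest subunit of the complex, differed by -0.01 ± 0.07 (SE). The sign of Ndufs1 and Ndufv2 changed with the scaling or the arrays used, so neither has a direction here. Over the 6 core genes the median difference was 0.08. At an unadjusted p under 0.05, 2 were higher (33.3%), against 4.18% of all genes, and 0 lower, against 5.33%. Among genes with a log2 value over 6 on 2 or more arrays these shares were 9.47% and 12.5%.

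Accessory subunits surround the core, and most are needed to build or stabilise it rather than for catalysis. Of the 28, 21 had a positive difference and 7 a negative one, with a median of 0.18. In 12 the groups did not overlap with Polg mutant higher, in 0 with Polg mutant lower. At an unadjusted p under 0.05, 8 were higher (28.6%), against 4.18% of all genes and 9.47% of the brighter genes. At that p 0 were lower, against 5.33% and 12.5%. All 8 had symbols of the Ndufa series. Of the 14 Ndufa genes 9 (64.3%) had groups that did not overlap, all with Polg mutant higher, against the same 8.36% and 16.7%. The median difference of the 14 was 0.48. The 8 Ndufb genes had a median of 0.18, with 0 at an unadjusted p under 0.05. Without WT replicate 1 these medians were 0.27 and 0.06, and the 28 accessory genes had a median of 0.07.

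In the matrix arm, Ndufa7 had the smallest p of all members. This subunit sits by the quinone module, and its gene read 7.97, 7.87 and 7.99 on the Polg mutant arrays, against 7.42 and 7.31 on the WT arrays. The gap between the groups was wider than the range within either. The means were 7.94 ± 0.06 in Polg mutant (SD, n = 3) and 7.37 ± 0.08 in WT (SD, n = 2), a difference of 0.58 ± 0.06 (SE; limma adjusted p = 0.2), or 0.63 without WT replicate 1. Ndufa2, which belongs to the NADH dehydrogenase module, read 8.61, 8.06 and 8.36 on the Polg mutant arrays, against 7.74 and 7.70 on the WT arrays. Its difference was 0.62 ± 0.19 (SE; limma adjusted p = 0.444). Ndufa6, a small LYR-motif protein that binds the acyl carrier protein, read 8.79, 8.52 and 8.38 on the Polg mutant arrays, against 8.07 and 8.11 on the WT arrays. Its difference was 0.48 ± 0.14 (SE; limma adjusted p = 0.434). In both genes all Polg mutant arrays were above the WT arrays, and Polg mutant replicate 1 was the highest.

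Ndufa12, named after its values were seen, is an accessory subunit of the matrix arm and read 7.37, 7.15 and 7.04 on the Polg mutant arrays, against 6.88 and 6.48 on the WT arrays, a difference of 0.51 ± 0.17 (SE). The WT arrays lay further apart than the nearest arrays of the groups, and the difference was 0.31 without WT replicate 2. Ndufs4, whose loss in mice causes a fatal encephalopathy, did not share this pattern. It read 9.58, 9.77 and 9.38 on the Polg mutant arrays, against 9.61 on both WT arrays, which lay inside the Polg mutant range. Ndufv3, a regulatory subunit of the NADH dehydrogenase module, read 6.30 on all Polg mutant arrays, against 6.30 and 6.46 on the WT arrays. Ndufa5 and Ndufa9 differed by -0.004 and 0.01.

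In the membrane arm, the genes with the largest differences were both X-linked. Ndufb11, a subunit of the distal membrane arm that is mutated in human X-linked disorders of heart, eye and skin and in congenital sideroblastic anaemia, read 7.56, 6.79 and 6.64 on the Polg mutant arrays, against 6.20 and 6.14 on the WT arrays. All Polg mutant arrays were above the WT arrays, but replicate 1 lay far above the other Polg mutant arrays. The difference of 0.83 ± 0.33 (SE; limma adjusted p = 0.638) was 0.54 without that array. Ndufa1, which anchors the matrix arm to the membrane arm, read 7.58, 7.23 and 7.18 on the Polg mutant arrays, against 6.50 and 6.73 on the WT arrays. Its difference was 0.72 ± 0.16 (SE; limma adjusted p = 0.329).

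Because WT replicate 1 had the male transcript pattern, the 2 genes were also read against WT replicate 2 alone. The difference was then 0.86 for Ndufb11 and 0.60 for Ndufa1, which rests on a single WT array. The 899 genes of chromosome X had a median difference of 0.004, and the 233 of them with a log2 value over 6 on 2 or more arrays had a median of 0.04. The part of sex in these differences was not tested.

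Ndufa13, also known as GRIM-19, read 9.99, 9.56 and 9.75 on the Polg mutant arrays, against 9.07 and 9.31 on the WT arrays. The groups did not overlap, and the difference was 0.58 ± 0.17 (SE; limma adjusted p = 0.424), or 0.46 without WT replicate 1. Ndufa8, a subunit of the intermembrane-space side, read 8.63, 8.48 and 8.55 on the Polg mutant arrays, against 8.25 and 8.40 on the WT arrays. This was a small but complete separation, with a difference of 0.23 ± 0.07 (SE; limma adjusted p = 0.478). Ndufa11 and Ndufa3, both membrane-arm subunits named after their values were seen, differed by 0.55 ± 0.18 and 0.49 ± 0.20 (SE). Their WT replicate 1 values, 9.14 and 9.60, were the lowest of the 5 arrays, and without that array the differences were 0.34 and 0.21.

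The other membrane-arm genes moved less, and are listed with no choice among them. Ndufb5, Ndufb8, Ndufb10, Ndufb6 and Ndufc1 had differences of 0.28, 0.20, 0.19, 0.17 and 0.14, none with an unadjusted p under 0.05. Without WT replicate 1, Ndufb8 and Ndufb10 differed by 0.05 and 0.08. Ndufc2 and Ndufa10 differed by 0.10 and 0.02, and Ndufs5, Ndufb9 and Ndufb7 by 0.001, -0.01 and -0.02. Ndufb3, which had the largest negative value of the accessory genes, read 7.04 to 7.06 on the Polg mutant arrays, against 7.06 and 7.28 on the WT arrays, so that only WT replicate 2 stood above the rest. Ndufab1, the mitochondrial acyl carrier protein present in both arms, read 5.30, 5.51 and 5.25 on the Polg mutant arrays, against 5.30 on both WT arrays.

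A pair of genes of the Ndufa series encode proteins that later work placed outside complex I. Ndufa4 is a subunit of cytochrome c oxidase, and read 8.92, 8.86 and 8.93 on the Polg mutant arrays, against 8.55 and 8.86 on the WT arrays. WT replicate 2 and Polg mutant replicate 2 had the same value, and the difference of 0.20 was 0.05 without WT replicate 1. Ndufa4l2, a hypoxia-induced relative of Ndufa4, read 4.54, 4.54 and 4.68 on the Polg mutant arrays, against 4.54 and 4.84 on the WT arrays. These values lay below the medians of the arrays. Leaving both out did not change the median of the accessory genes, 0.18.

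**Figure D2:**
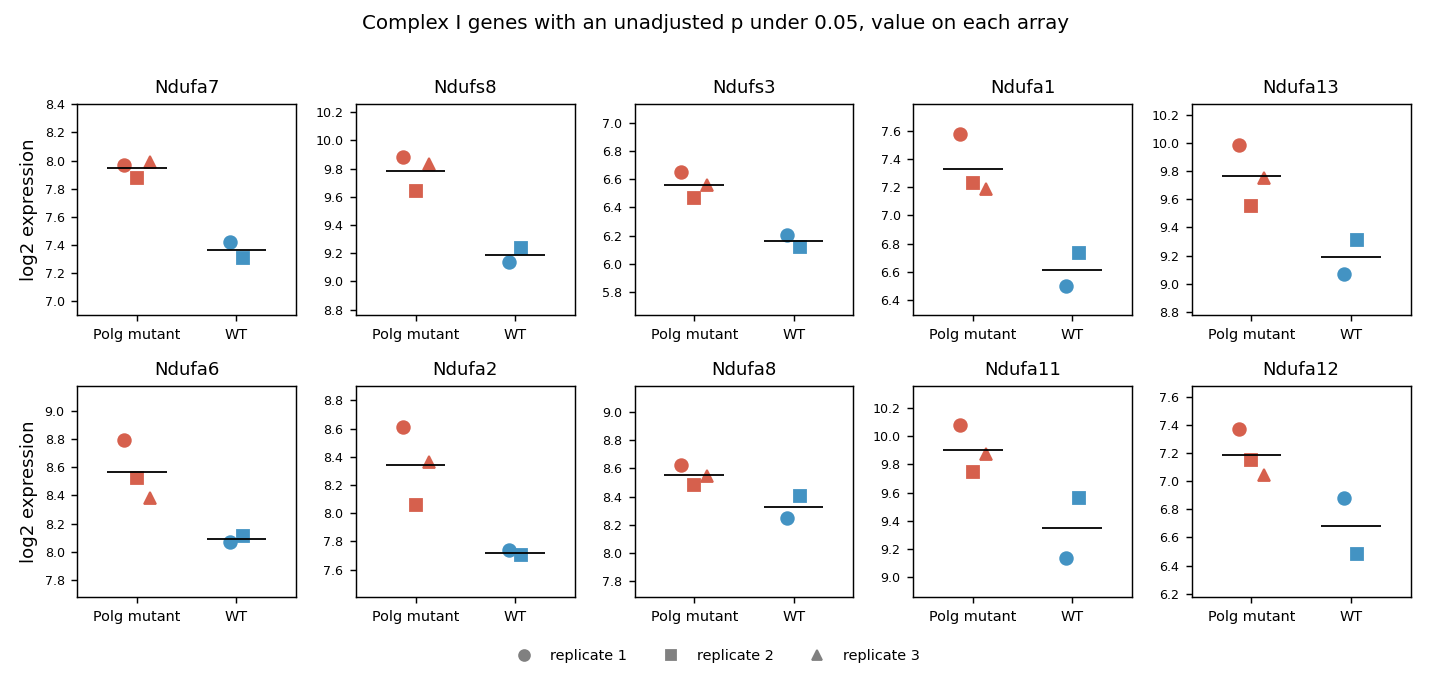
Deposited log2 expression (vertical axis, each panel spanning the same range) of the 10 complex I genes with an unadjusted p under 0.05 on each Polg mutant array (red, left) and each WT array (blue, right), with symbols for the replicate number and lines at the group means. All Polg mutant points lie above both WT points in each panel, and the gap is widest relative to the spread in Ndufa7, Ndufs8 and Ndufs3.

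In 12 of the 14 genes whose groups did not overlap upward, Polg mutant replicate 1 was the highest array. The median over all 42 genes, relative to the WT mean, was 0.11, 0.10 and 0.11 on the Polg mutant arrays, against -0.02 and 0.02 on the WT arrays.

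Assembly factors build the complex from preformed modules and are not part of the finished enzyme. They showed little difference, but were dimmer than the subunit genes. Their median level was 5.92, against 7.63 for accessory and 9.46 for core genes. Of the 8, 4 had a log2 value over 6 on 2 or more arrays. The part of level in this was not tested. Of the 8 Ndufaf genes 4 had a positive difference, 3 a negative one and Ndufaf2 none, with a median of 0.02. At an unadjusted p under 0.05 there were 0 in either direction, against 4.18% of all genes as higher and 5.33% as lower. The largest value was that of Ndufaf4, which acts with Ndufaf3 in early assembly of the quinone module and read 6.94, 6.94 and 7.02 on the Polg mutant arrays, against 6.57 and 7.02 on the WT arrays. Only WT replicate 1 lay apart, and the difference of 0.17 ± 0.16 (SE) was -0.06 without it. Ndufaf1, a chaperone of the membrane arm, read 7.24, 7.01 and 7.01 on the Polg mutant arrays, against 7.01 and 6.87 on the WT arrays, a difference of 0.15 ± 0.10 (SE). The groups shared a value, 7.01.

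Ndufaf3 read 8.13, 8.10 and 8.06 on the Polg mutant arrays, against 8.15 and 8.14 on the WT arrays. The groups did not overlap, but the difference was only -0.05 ± 0.03 (SE; limma adjusted p = 0.638). Ndufaf8, a partner of Ndufaf5, read 5.93, 6.14 and 6.49 on the Polg mutant arrays, against 6.14 and 6.33 on the WT arrays, with a Polg mutant spread that enclosed WT. Ndufaf7, an arginine methyltransferase of early assembly, and Ndufaf6, a phytoene synthase-like factor, differed by 0.05 and 0.03. Ndufaf5, which hydroxylates Ndufs7, read 3.83 to 3.98 on the Polg mutant arrays, against 3.92 on the WT arrays, and Ndufaf2, a chaperone of late assembly, read 5.17 on all 5 arrays. Ndufaf5 lay below the array medians. Ndufaf2 and Ndufaf6 lay near them, the latter at 5.02 to 5.13.

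Assembly factors without an Ndufaf symbol gave a like picture. Of 10 measured, 0 had an unadjusted p under 0.05 in either direction, and their median difference was 0.01, at a median level of 6.08. They comprised Foxred1 (0.05), Ecsit (-0.04), Tmem126b (-0.14), Dmac1 (0.04), Dmac2 (0.03), Tmem70 (0.03), Nubpl (0.03), Tmem186 (-0.01), Acad9 (-0.002) and Timmdc1 (0). Of these, 9 had the same value on at least 2 arrays, as had 6 of the 8 Ndufaf genes and 14 of the 34 subunit genes.

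**Figure D3:**
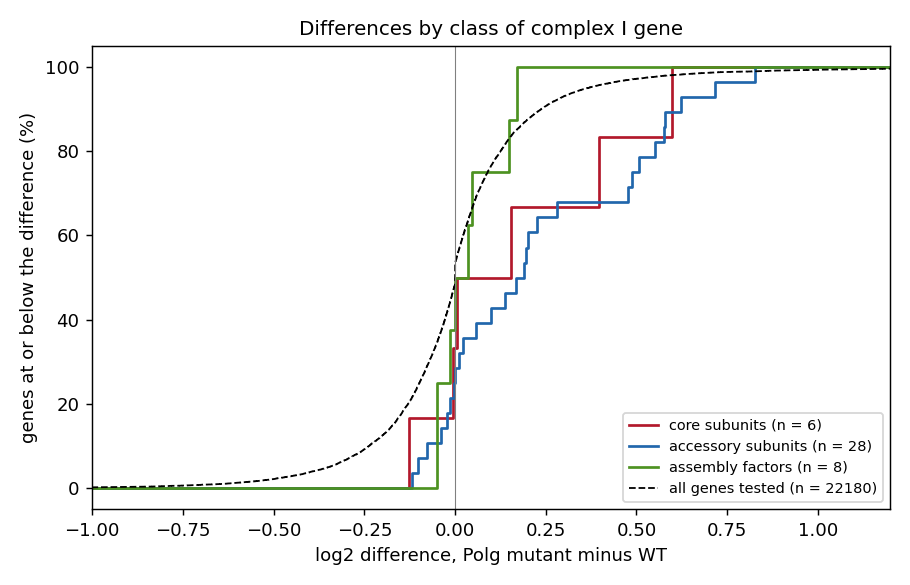
Cumulative share of genes (vertical axis, percent) at or below a given log2 difference (Polg mutant minus WT, horizontal axis) for core subunits, accessory subunits and assembly factors of complex I, with all 22180 genes tested as a dashed line. The curves of core and accessory subunits run to the right of all genes above 0, while that of the assembly factors stays within -0.05 to 0.17.

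The subunits of complex I encoded by mitochondrial DNA were all higher in the mean. The 7 genes had a median difference of 0.22, and 2 were higher at an unadjusted p under 0.05 (28.6%). The share was 4.18% of all genes and 9.47% of genes with a log2 value over 6 on 2 or more arrays. ND3 read 13.02, 12.91 and 12.79 on the Polg mutant arrays, against 12.13 and 12.02 on the WT arrays, a difference of 0.83 ± 0.09 (SE; limma adjusted p = 0.2). ND4, at 13.62, 13.59 and 13.55 on the Polg mutant arrays, against 13.51 and 13.46 on the WT arrays, differed by 0.10 ± 0.03 (SE).

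Nuclear subunit genes of the other respiratory complexes and mitochondrial ribosomal protein genes also had positive medians. The list of complexes II to V, matched by symbol, held 48 genes, of which the pseudogenes Atp5c1-ps and Uqcrh-ps1 were left out after the data were seen. Of the other 46, 12 were higher (26.1%) and 0 lower at an unadjusted p under 0.05, against 4.18% and 5.33% of all genes. Of genes with a log2 value over 6 on 2 or more arrays, 9.47% were higher and 12.5% lower. The 46 had a median difference of 0.16. Without WT replicate 1 that median was 0.13. The 4 genes of smallest p were the ATP synthase genes Atp5l and Atp5e, at 0.66 and 0.91, the cytochrome c oxidase gene Cox6b2 at 2.02 and the complex III gene Uqcrq at 0.47. Of 71 mitochondrial ribosomal protein genes, 10 were higher (14.1%), against 4.18% of all genes and 9.47% of the brighter genes, and 1 was lower. The 71 had a median difference of 0.12. Without WT replicate 1 it was 0.07. The 4 of smallest p were Mrpl15, Mrps10, Mrpl38 and Mrpl3, at 0.32, 0.29, 0.39 and 0.37. No difference between these lists and complex I was tested.

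Nuclear respiratory factor 1, GABP and YY1 are transcription factors known to act at promoters of nuclear respiratory genes. None of 9 such regulator genes had an unadjusted p under 0.05, and their median difference was -0.04. Nrf1, the gene of nuclear respiratory factor 1, read 7.46, 7.74 and 7.74 on the Polg mutant arrays, against 7.94 and 7.96 on the WT arrays. Gabpb1, the gene of a GABP subunit, read 7.05, 7.31 and 7.30 on the Polg mutant arrays, against 7.45 and 7.57 on the WT arrays. For both, all Polg mutant arrays lay below the WT arrays, with differences of -0.30 ± 0.11 and -0.29 ± 0.11 (SE), neither past an unadjusted p under 0.05 (limma adjusted p = 0.554 and 0.564). Esrra, a nuclear receptor of mitochondrial genes, and Yy1 differed by 0.12 and -0.05.

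Promoters of complex I genes were searched for the letters these factors are known to bind. RefSeq windows of 300 bases, from 250 before to 50 after the annotated start in GRCm38.p6, were matched by symbol for 37 of the 42 genes, taking the first entry of a gene with several. Those of Ndufs1, Ndufaf6, Ndufa2, Ndufa4l2 and Ndufb9 were not used here. Both strands were searched, and matches to different motifs were counted separately even where they overlapped. The nuclear respiratory factor 1 letters, GCGC and TGCGC parted by any single base, were in 7 of the 37 (18.9%), against 4.78% of all 27025 promoters. The ETS letters CCGGAAG, bound by GABP, were in 6 (16.2%), against 9.12%, and the YY1 letters AAGATGGC in 7 (18.9%), against 2.88%. CCAAT was in 11 (29.7%), against 37.9%, and the GC box letters GGGCGG were in 20 (54.1%), against 35.9%. The erythroid GATA letters AGATAA were in 2 (5.41%), against 11.4%, and the letters TGATGNAA, bound by ATF4 with a C/EBP partner, were in 0, against 4.06%.

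Of the 9 promoters of genes that were higher at an unadjusted p under 0.05, 3 held the nuclear respiratory factor 1 letters (Ndufa6, Ndufa8 and Ndufa11), 2 the ETS letters (Ndufs3 and Ndufs8) and 0 the YY1 letters. Of the 28 other complex I promoters, these counts were 4, 4 and 7. A match is a description of the letters, not of a bound site. The windows of Ndufs8 (chr19:3912725-3913024, minus strand), Ndufs3 (chr2:90904672-90904971, minus strand), Ndufa6 (chr15:82354242-82354541, minus strand) and Ndufs7 (chr10:80249199-80249498, plus strand) are shown as examples of each of the 3 motifs, with the difference between the groups of each of these genes given above. No test of motif against difference was made. Capitals mark the ETS letters on either strand in Ndufs8 and Ndufs3, the nuclear respiratory factor 1 letters in Ndufa6 and the YY1 letters in Ndufs7.
Ndufs8: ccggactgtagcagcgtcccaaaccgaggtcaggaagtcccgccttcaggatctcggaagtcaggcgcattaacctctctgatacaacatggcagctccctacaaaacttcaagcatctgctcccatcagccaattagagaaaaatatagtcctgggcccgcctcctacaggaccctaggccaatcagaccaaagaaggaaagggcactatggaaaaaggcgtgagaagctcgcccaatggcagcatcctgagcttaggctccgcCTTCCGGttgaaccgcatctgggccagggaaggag
Ndufs3: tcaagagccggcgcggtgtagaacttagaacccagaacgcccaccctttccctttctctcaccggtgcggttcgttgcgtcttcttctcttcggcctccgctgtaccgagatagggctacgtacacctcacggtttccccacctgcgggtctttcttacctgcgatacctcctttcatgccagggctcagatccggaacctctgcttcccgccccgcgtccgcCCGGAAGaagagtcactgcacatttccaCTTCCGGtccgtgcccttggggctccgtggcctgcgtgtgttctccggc
Ndufa6: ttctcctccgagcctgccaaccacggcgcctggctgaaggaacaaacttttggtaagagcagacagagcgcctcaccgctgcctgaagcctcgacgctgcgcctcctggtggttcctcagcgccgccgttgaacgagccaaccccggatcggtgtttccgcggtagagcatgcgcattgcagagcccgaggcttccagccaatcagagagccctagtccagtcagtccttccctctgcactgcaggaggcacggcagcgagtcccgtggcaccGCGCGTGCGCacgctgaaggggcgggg
Ndufs7: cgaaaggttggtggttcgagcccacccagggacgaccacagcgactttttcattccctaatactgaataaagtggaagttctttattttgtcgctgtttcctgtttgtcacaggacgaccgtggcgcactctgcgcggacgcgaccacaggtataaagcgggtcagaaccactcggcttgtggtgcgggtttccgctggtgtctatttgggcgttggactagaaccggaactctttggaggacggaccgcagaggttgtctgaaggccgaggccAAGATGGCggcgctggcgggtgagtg

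The ETS match of Ndufs8, the second of Ndufs3, the nuclear respiratory factor 1 match of Ndufa6 and the YY1 match of Ndufs7 lay downstream of the annotated start, and the first ETS match of Ndufs3 upstream.

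Other probe sets of the same genes were dimmer and moved less. Ndufa11, Ndufa8 and Ndufa12 each had a further probe set with that symbol alone, with differences of -0.17, 0.10 and 0.12, against 0.55, 0.23 and 0.51 on the brightest. The second Ndufa11 probe set thus had the opposite sign. A further 6 probe sets carried a complex I symbol together with others and were left out.

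**Figure D4:**
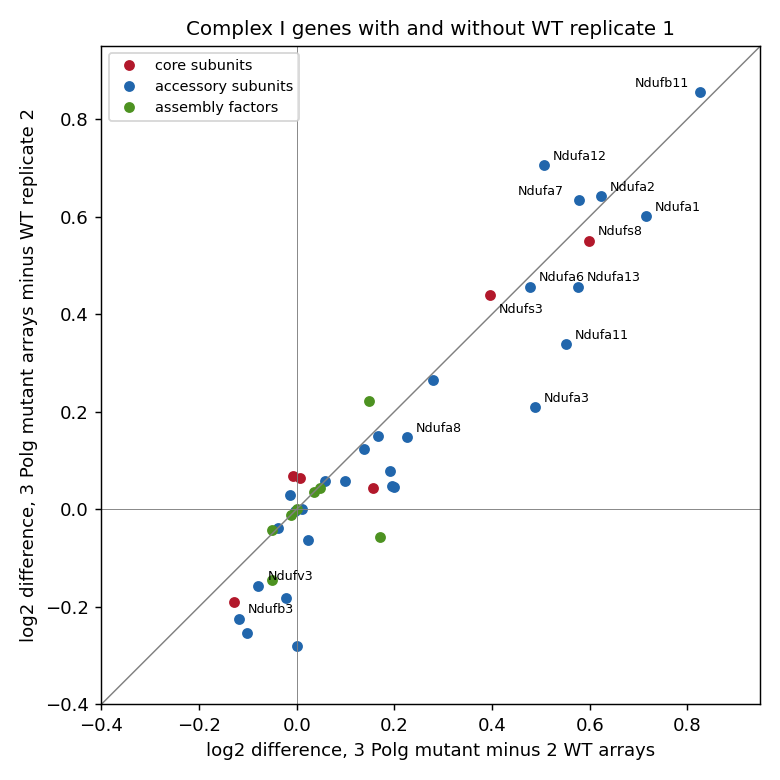
Log2 difference of each complex I gene between 3 Polg mutant and 2 WT arrays (horizontal axis) and between the 3 Polg mutant arrays and WT replicate 2 alone (vertical axis), with a line of equality. The named genes with large differences stay above 0 on both axes, with Ndufa11 and Ndufa3 well below the line and Ndufa12 above it; Ndufb3 and Ndufv3 lie below 0 on both.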

How the data were processed

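Biotin-labelled cDNA made from 100 ng of total RNA per sample was read on Affymetrix arrays, 3 Polg mutant and 2 WT, per the labels' protocols. The values deposited by the authors are log2 expression levels of 41345 probe sets; the scale was judged from their range. The submitters' processing notes name RMA and Partek 6.5 without saying what each did. Genome build and probe annotation are not given in the sources used here, and signal over background is not known, so the number of arrays limits the precision.

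No further normalization was applied. Of the probe sets 23521 carried 1 symbol in the platform's annotation, 1814 several and 16010 none, and the brightest single-symbol probe set per gene left 22180 genes. One linear model with genotype as its term was fitted to all of them with limma 3.58.1 in R 4.3.3, with empirical Bayes moderation. Tests were two-sided, and p-values were adjusted over all genes by the Benjamini-Hochberg method. Lists are described by counts and medians. Of all genes, 67.9% had the same value on at least 2 arrays, against 47.6% of the 42 complex I genes. The moderation drew each gene's spread toward an SD of 0.0376, weighted as 0.73 degrees of freedom.

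Core subunits, all Ndufaf genes, the 6 accessory genes of smallest p in each direction, a fixed set of 12 and the leading members of other lists were to be named; others are said to have been chosen after their values were seen. The members and lists were chosen with earlier results of these data known. Alternatives were 2 scalings, a level filter, probe set averaging, a replicate block, no moderation, leaving out each array and, added after the data were seen, a fit to genes with 5 distinct values. Whether replicate numbers pair the arrays was not settled, and the main fit treated the arrays as unpaired. Promoter windows are RefSeq's, GRCm38.p6.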

Additional observations from a re-analysis of the deposited data

How the results depend on the processing

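The lean of complex I subunits toward higher levels in Polg mutant cells kept its direction under each alternative run, but its size depended on the WT arrays. The count of members higher at an unadjusted p under 0.05 in limma, 10 as reported (all genes 4.18%), was 4 with the replicate number as a replicate block (all genes 4.91%), with 2 members lower, and 4 without moderation of the variance (all genes 2.9%). Leaving out 1 array gave 5 without WT replicate 1 (all genes 8.56%) to 11 without WT replicate 2 (all genes 8.3%), with 6 without Polg mutant replicate 2 or 3 (all genes 3.37% and 3.74%), and 0 to 2 lower members. The count past an adjusted p under 0.05 was 0 to 2: without WT replicate 1, Ndufv3 (-0.16) and Ndufb3 (-0.22) passed as lower, at limma adjusted p of 0.0142 and 0.0203. Both genes were nearly constant across the Polg mutant arrays. The accessory median, 0.18, ranged from 0.069 (without WT replicate 1) to 0.29 (without WT replicate 2), the core median, 0.081, from 0.066 to 0.11, and the assembly median, 0.017, from -0.0063 to 0.040. With genes above a log2 of 6 the assembly median was 0.049. With genes of 5 distinct values, which is not independent of the differences, the medians were 0.0064 for core, 0.49 for accessory and -0.05 for assembly genes. The cause of these changes was not tested, and the shares of all genes given in brackets are not matched for level. Scaling moved the median of all genes by at most 0.0162.

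The correlation of deviations over all genes between same-numbered arrays was 0.188 for replicate 1 and -0.201 for replicate 2. With 2 WT arrays the deviations of one mirror those of the other, so these values cannot decide whether the numbers pair the arrays.

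Of 31 single genes followed, 11 changed sign somewhere, the reversed values being at most 0.0772 in size. After quantile normalization Ndufaf5 was 0.012 and Ndufb9 0.0028. After median centring Ndufs1 was 0.0071, Ndufaf5 0.0011, Ndufb9 0.0005 and Ndufa5 0.0095. With the replicate block Ndufs1 was 0.032, Ndufaf5 0.027, Ndufs4 0.059 and Ndufa10 -0.0062. Leaving out 1 array, the ranges were -0.052 to 0.065 for Ndufv2, -0.081 to 0.068 for Ndufs1, -0.20 to 0.077 for Ndufaf8, -0.046 to 0.027 for Ndufaf5, -0.057 to 0.40 for Ndufaf4, -0.25 to 0.049 for Ndufa4l2, -0.056 to 0.029 for Ndufb9, -0.13 to 0.059 for Ndufs4, -0.062 to 0.11 for Ndufa10 and -0.021 to 0.11 for Ndufab1.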
